A study of Mus musculus with 4 samples.

Results

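The genes of glycolysis and of the hypoxia response were examined in mouse lung endothelial cells (ECs) 7 days after removal of the left lung. The list holds 37 genes chosen by symbol, out of 24063 gene symbols in the deposited tables, and all 37 were found. It covers the oxygen-sensing machinery, glucose uptake and hexokinases, upper and lower glycolysis, the handling of pyruvate and lactate, and a set of genes known to respond to low oxygen. ECs from mice with unilateral pneumonectomy (PNX) were compared with ECs from sham-operated mice (Sham). The mice were C57BL6 by the labels and C57BL6J by the study's methods, 8 weeks old and labelled male. No added allele is named for either group. The study's methods for the operation name ketamine and xylazine for anaesthesia, mechanical ventilation, and meloxicam against pain afterwards. Sham mice had the chest opened without removal of a lung. Each group had 2 libraries, each pooled from the cells of 2 mice, and ECs were taken from digested lungs with beads that bind CD31, a surface protein of ECs and, at lower levels, of some blood cells. The unit compared is therefore the pool. A p-value sets the difference between the groups against a spread fitted from 2 pools per group, with information shared over genes.

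Glycolysis splits glucose into pyruvate and yields ATP without oxygen, and lactate dehydrogenase turns pyruvate into lactate, which leaves the cell through monocarboxylate transporters. ECs are known to draw most of their ATP from glycolysis although blood oxygen is at hand. When oxygen falls, the prolyl hydroxylases (the Egln genes) no longer mark the HIF alpha subunits for destruction by the Vhl protein, and HIF alpha pairs with Arnt on the core motif ACGTG to raise many genes of glycolysis. Hif1a and Epas1 (HIF-2 alpha) encode the alpha subunits, and Epas1 is the abundant form in lung ECs and alveolar cells.

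The HIF core motif, ACGTG read on either strand, was looked up in the 250 bases before the transcription starts that RefSeq gives on GRCm38.p6, the mm10 build. A window was given for 34 of the members, and 19 of the 34 had the motif, while 18.5% of 27025 genes had it in any of their windows and 16.6% of 32851 windows held it. Of the members that rose after PNX, 12 of the 22 with a window had it. Of those that fell, 4 of 5 had it, and so did 3 of 7 that did not pass the test. The motif was thus present on both sides of the response, with only 5 genes that fell in the count. The list was chosen for glycolysis and the hypoxia response, so its excess over all genes is not a result of these data. The palindrome CACGTG of the motif, the E-box of MYC and other factors, overlaps it and was counted with it. A match describes letters and not binding. With GCGTG allowed as well, 30 of the 34 members and 41.5% of all genes had a match.

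Windows of 4 genes that rose are printed to show how the motif lies, in lower case from 5′ to 3′ on the gene's strand with ACGTG, its reverse CACGT or the palindrome in capitals. They belong to lactate dehydrogenase A (chr7:46845554-46845803, plus strand, 1 of its annotated starts), phosphoglycerate kinase (chrX:106186850-106187099, plus strand), hexokinase 2 (chr6:82774455-82774704, minus strand) and the prolyl hydroxylase Egln3 (chr12:54203875-54204124, minus strand).
Ldha: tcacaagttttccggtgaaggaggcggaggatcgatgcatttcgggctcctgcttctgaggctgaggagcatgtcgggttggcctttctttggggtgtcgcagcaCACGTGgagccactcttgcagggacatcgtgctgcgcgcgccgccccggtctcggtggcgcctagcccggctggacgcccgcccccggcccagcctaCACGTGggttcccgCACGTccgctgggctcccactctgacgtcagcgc
Pgk1: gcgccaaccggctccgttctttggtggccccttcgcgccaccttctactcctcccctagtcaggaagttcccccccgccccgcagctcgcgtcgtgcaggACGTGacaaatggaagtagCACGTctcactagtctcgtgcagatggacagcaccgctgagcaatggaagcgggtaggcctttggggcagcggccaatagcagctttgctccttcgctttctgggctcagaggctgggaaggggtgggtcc
Hk2: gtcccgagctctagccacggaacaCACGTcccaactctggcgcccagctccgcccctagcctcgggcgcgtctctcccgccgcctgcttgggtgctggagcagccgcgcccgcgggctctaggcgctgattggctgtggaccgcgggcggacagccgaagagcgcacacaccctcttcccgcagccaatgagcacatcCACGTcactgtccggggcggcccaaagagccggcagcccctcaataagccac
Egln3: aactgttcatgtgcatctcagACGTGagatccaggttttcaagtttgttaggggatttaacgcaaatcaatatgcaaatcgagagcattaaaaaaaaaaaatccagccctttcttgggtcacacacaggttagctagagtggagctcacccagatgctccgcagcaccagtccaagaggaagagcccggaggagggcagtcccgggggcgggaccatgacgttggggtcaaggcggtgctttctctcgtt
The Ldha window held the palindrome at 2 places and a further CACGT closer to the start, whereas the Egln3 window held a single match near its far end.

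Short stretches around the motif are printed for 4 genes that fell, since the same letters stood before their starts. They lie at chr7:138909597-138909626 (minus strand) for Bnip3, chr6:29272571-29272599 (plus strand) for 1 start of Hilpda, chr2:11553973-11554001 (minus strand) for 1 start of Pfkfb3 and chr8:124949306-124949334 (minus strand) for Egln1.
Bnip3: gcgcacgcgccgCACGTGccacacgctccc
Hilpda: gatggccagcggACGTGccccagggcgag
Pfkfb3: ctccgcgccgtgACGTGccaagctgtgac
Egln1: gggccgtggtgtACGTGcagcgcgcgcgg
The matches began 108, 43, 60 and 68 bases before the respective starts. The Hilpda match lay before the later of its annotated starts, inside the transcribed gene, and the window before the first start held 0 matches. The stretches of Bnip3, Pfkfb3 and Egln1 also came from windows that overlapped annotated exons of the same gene.

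Counts per library, with 1 transcript taken per gene, lay between 41367438 and 50952879, so that 3 counts corresponded to between 0.0589 and 0.0725 CPM (counts scaled to library size). All 37 members passed the filter on low counts, and the lowest mean was 81.1 normalized counts. The labels gave male mice, yet no read was counted on any of the 44 listed genes of the Y chromosome, whereas Xist, the RNA of the inactive X, lay between 31872 and 33792 normalized counts. The libraries thus went against the label, and they did so in both groups. The EC markers were present, with 90946 normalized counts of Pecam1 (CD31) on average in Sham and 90399.6 in PNX, but 10 of the 12 EC markers fell and their summed level went from 557106 and 562885 to 461779 and 463729. Markers of alveolar epithelium were also abundant, with 171015 normalized counts of Sftpc on average in Sham, and 8 of 8 fell, from a sum of 319958 and 320170 to 212384 and 211794. Of the macrophage and monocyte markers 9 of 10 rose (sum 170666 and 169928 against 226133 and 224985), and of the proliferation markers 7 of 7 rose (sum 2973 and 2993 against 25089 and 24747). Of the fibroblast markers 5 of 7 rose, each beyond 1 on the log2 scale, and 1 fell (median log2 fold change 2.27, sum 61429 and 62019 against 223349 and 224945). Mesothelial markers rose in 6 of 6 cases (median 1.06, sum 11529 and 11667 against 23941 and 24354), and those of smooth muscle and pericytes in 6 of 7 (median 0.46, sum 22241 and 22519 against 29471 and 29276). Of the neutrophil markers 5 of 8 rose and 3 fell, of the pan-leukocyte markers 4 of 7 rose and 1 fell, and of the erythroid markers 3 of 7 rose. In such bulk samples, fewer cells of a type and less RNA per cell cannot be told apart, and the part of these other cells in the results that follow was not tested.

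After PNX, 24 of the 37 members were higher and 6 were lower at an adjusted p under 0.01 in edgeR's quasi-likelihood test, while 7 did not pass. These are 64.9% and 16.2% of the list. Of all 16208 genes tested, 29.3% were higher and 27.8% lower by the same rule, so a call alone was common in these libraries. Among genes averaging 50 or more normalized counts, as every member did, the shares were 31.3% and 30.5%. Members had a median log2 fold change of 0.27 and all genes one of 0.00, and the median size regardless of direction was 0.42 against 0.22. Beyond 0.5 on the log2 scale, 11 members rose and 4 fell, against 11.3% and 7.15% of all genes. Only Egln3 and Eno2 rose beyond 1 on the log2 scale, against 5.9% of all genes, and no member fell that far, against 1.66%. The libraries of the groups did not overlap for any member, with 27 above and 10 below Sham, but this held for 40.8% and 40.5% of all genes as well.

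**Figure D1:**
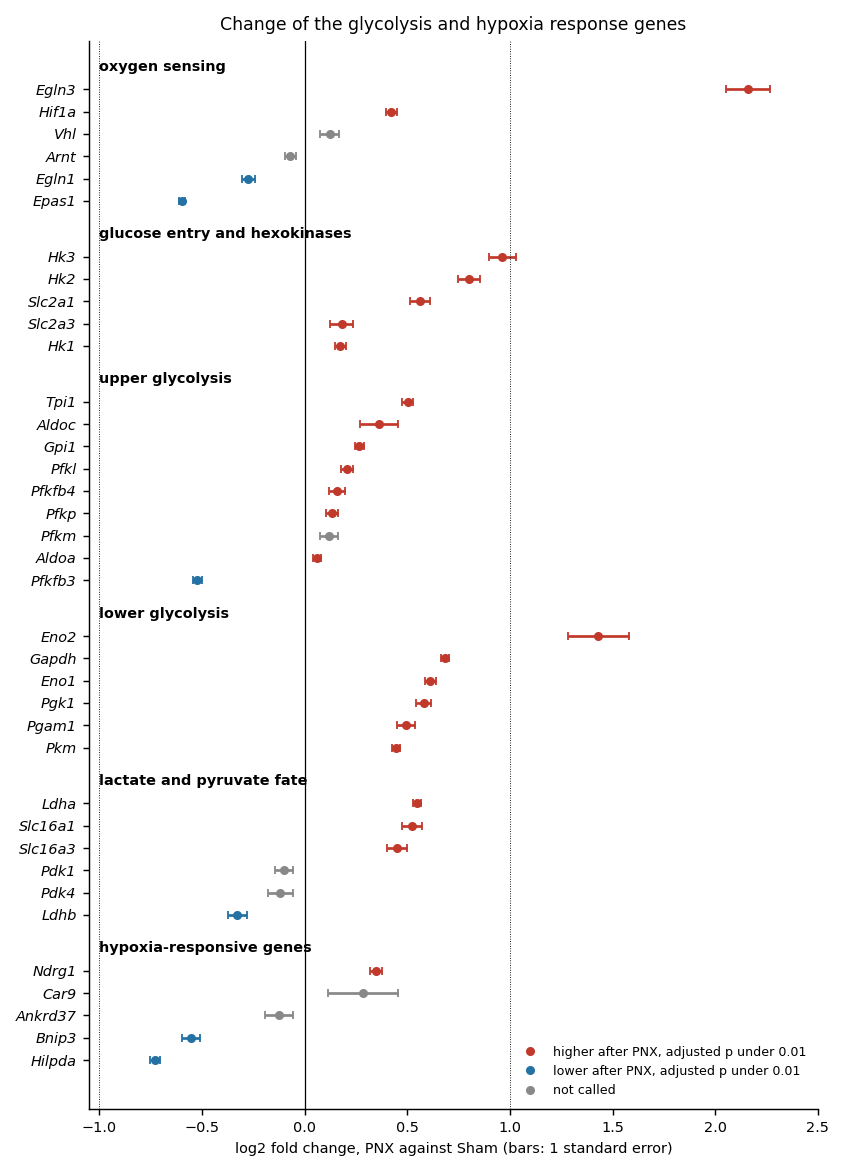
Log2 fold change of each of the 37 members between PNX and Sham (x axis, points, bars of 1 standard error), ordered by role, with dotted lines at 1 and -1. The 6 genes of lower glycolysis and the 5 of glucose entry all lie to the right of 0, while the oxygen-sensing and hypoxia-responsive genes lie on both sides, from Egln3 at 2.16 to Hilpda at -0.73.

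The oxygen sensors moved in opposite directions. Egln3, a prolyl hydroxylase that is itself raised by HIF (chr12:54178981-54203874), had 90.6 and 110 normalized counts in Sham and 441 and 452 in PNX. This was 4.47-fold, the largest rise of the list (log2 fold change 2.16 ± 0.11 SE, adjusted p = 9.5e-27). Egln1, the main oxygen sensor of most cells, went from 3862 and 3964 to 3264 and 3202 (log2 fold change -0.27 ± 0.03, adjusted p = 3.8e-12), a fall that was gone with counts scaled to the 12 EC markers (0.00084, adjusted p = 0.981). By the deposited TPM, which is scaled to transcript length, Egln3 made up 1.48% of the 3 prolyl hydroxylases in Sham and 6.94% in PNX, and Egln1 44.0% and 38.2%. The share of Egln2, the third hydroxylase, stayed between 54.3% and 55.2% in the 4 libraries.

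The HIF alpha subunits also diverged. Hif1a rose from 4952 and 4659 normalized counts to 6358 and 6543 (log2 fold change 0.42 ± 0.03, adjusted p = 1.5e-21). Epas1 (chr17:86753864-86833410) fell from 259878 and 261400 to 169950 and 174131 (log2 fold change -0.60 ± 0.01, adjusted p = 7.9e-43). Epas1 nevertheless remained the most abundant member in both groups, at 1688 TPM in Sham and 1089 TPM in PNX on average. The share of Hif1a among the alpha subunits was 2.03% in Sham and 4.04% in PNX by TPM. The fall of Epas1 stood beside the falls of the alveolar markers (median log2 fold change -0.62) and of the EC markers (median -0.34). With counts scaled to the 12 EC markers Epas1 was still lower, at -0.32.

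The partners of the pathway changed little. Arnt, which pairs with both alpha subunits, had 4390 and 4508 normalized counts in Sham and 4251 and 4221 in PNX (log2 fold change -0.07, adjusted p = 0.0241). Vhl, which marks the hydroxylated alpha subunits for the proteasome, had 1149 and 1229 against 1269 and 1318 (log2 fold change 0.12, adjusted p = 0.0195). Neither passed the threshold of 0.01, although the libraries of each gene did not overlap between the groups. Vhl passed without Sham replicate 2. With counts scaled to the EC markers both were above 0 and passed (Arnt 0.20, Vhl 0.40), but the median of all genes was then 0.28.

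**Figure D2:**
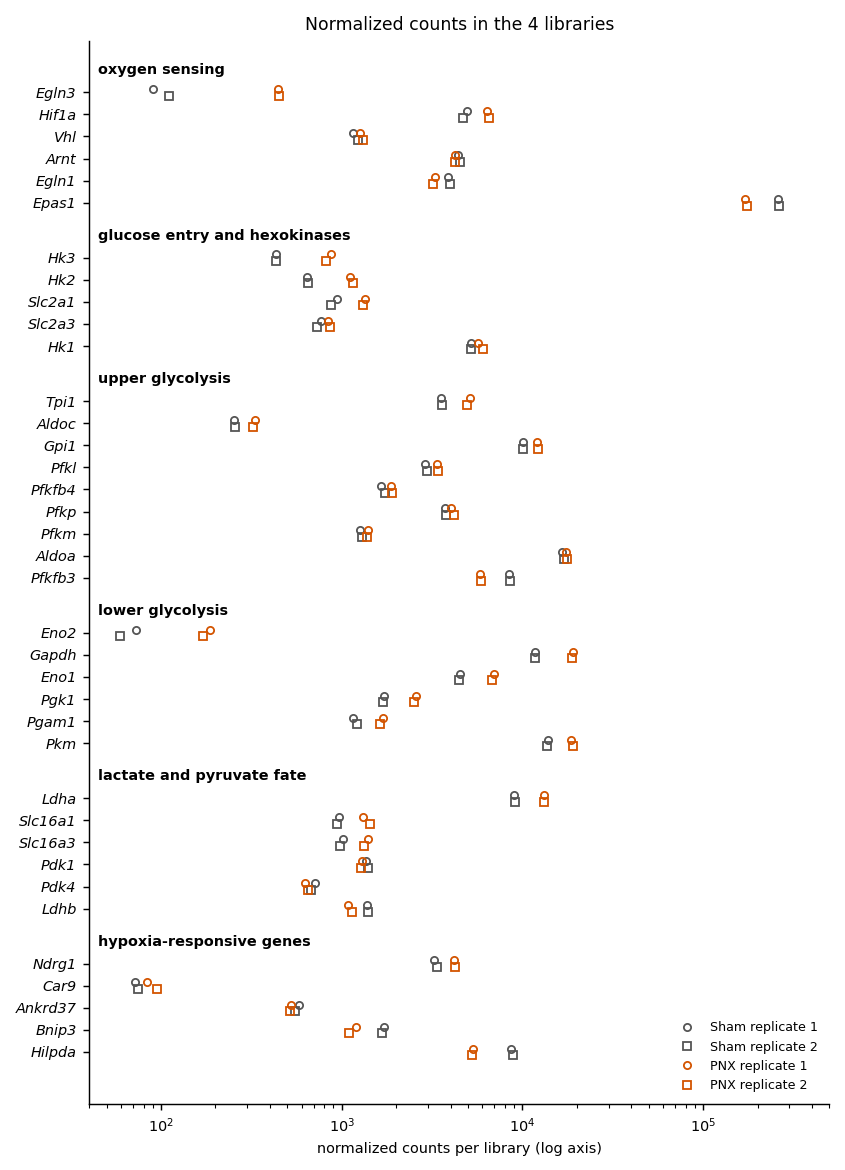
Normalized counts of the 37 members in each of the 4 libraries (x axis, log scale; grey for Sham, orange for PNX, circles for replicate 1 and squares for replicate 2). The replicates lie close together against the range over genes, from 59.1 for Eno2 in Sham to 261400 for Epas1 in Sham.

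The genes of glucose entry and the hexokinases rose together. All 5 genes were higher after PNX, against 29.3% of all genes, with a median log2 fold change of 0.56. Slc2a1, the glucose transporter GLUT1, went from 938 and 870 normalized counts to 1350 and 1318 (log2 fold change 0.56 ± 0.05, adjusted p = 1.4e-15). Slc2a3, the transporter GLUT3, went from 770 and 731 to 841 and 864 (0.18 ± 0.06, adjusted p = 0.00403). The rise of GLUT3 was small, and it missed the threshold with the DESeq2 Wald test (adjusted p = 0.108), with counts summed over transcripts (0.0125) and without Sham replicate 2 (0.0535) or PNX replicate 2 (0.0328). GLUT1 made up 64.9% of the 2 transporters by TPM in Sham and 70.7% in PNX.

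Among the hexokinases, which trap glucose in the cell as glucose 6-phosphate, the less abundant forms rose more. Hk1, the widely expressed form, went from 5162 and 5218 normalized counts to 5685 and 6036 (log2 fold change 0.17 ± 0.03, adjusted p = 6.7e-08). Hk2, the inducible form and a known HIF target (chr6:82725025-82774454), went from 646 and 650 to 1104 and 1154 (0.80 ± 0.05, adjusted p = 3.0e-20). Hk3, a form known from myeloid cells, went from 435 and 432 to 868 and 821 (0.96 ± 0.06, adjusted p = 1.1e-20). By TPM the share of Hk1 was 83.2% in Sham and 75.1% in PNX, that of Hk2 7.84% and 10.9%, and that of Hk3 8.97% and 14.0%. The 10 macrophage and monocyte markers had a median log2 fold change of 1.00, but ranged from 0.07 to 2.98. The 8 neutrophil markers had a median of 0.15, from -0.54 to 1.18. The part of these cells in the level of Hk3 was not tested.

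The genes of upper glycolysis moved less. Of its 9 genes 7 rose and 1 fell, against 29.3% and 27.8% of all genes. The other 1 did not pass, and the median log2 fold change was 0.16. Aldoa, the main aldolase and the member with the second highest TPM in Sham (367), had 16626 and 17000 normalized counts in Sham and 17423 and 17639 in PNX, a difference of 0.06 ± 0.02 on the log2 scale (adjusted p = 0.00566). It missed the threshold with the DESeq2 Wald test (adjusted p = 0.0491), with summed transcripts (0.0101) and with Sham replicate 1 (0.0814), PNX replicate 1 (0.0101) or PNX replicate 2 (0.0618) left out. Aldoc, the aldolase of brain and other tissues, went from 254 and 257 to 332 and 323 (log2 fold change 0.36 ± 0.09, adjusted p = 0.00043; 0.0433 with DESeq2). Gpi1, the isomerase that follows hexokinase, went from 10116 and 10066 to 12108 and 12154 (0.27 ± 0.02, adjusted p = 2.1e-17). Tpi1, which turns the second product of aldolase into glyceraldehyde 3-phosphate, went from 3547 and 3599 to 5154 and 4952 (0.50 ± 0.03, adjusted p = 6.9e-24), the largest rise of this group.

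The phosphofructokinases, which commit sugar to glycolysis, differed little among themselves. The liver form Pfkl rose from 2895 and 2965 normalized counts to 3347 and 3414 (log2 fold change 0.21 ± 0.03, adjusted p = 4.7e-08), and the platelet form Pfkp rose from 3704 and 3765 to 4033 and 4168 (0.13 ± 0.03, adjusted p = 5.2e-05). The muscle form Pfkm had 1262 and 1287 against 1389 and 1376 (0.12 ± 0.04, adjusted p = 0.017). Among the alternatives that keep the scale it passed, at 0.004, only when counts were summed over its 3 transcripts. The lowest of these had 96.9% or more of the counts of the highest, so the sum repeats nearly the same counts and is not separate support. The shares of the 3 forms by TPM moved by little, that of Pfkp from 42.7% to 42.1%.

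The enzymes that set fructose 2,6-bisphosphate, the activator of phosphofructokinase, went apart. Pfkfb3 (chr2:11471430-11554071), known as the driver of glycolysis in sprouting ECs, fell from 8423 and 8507 normalized counts to 5854 and 5935 (log2 fold change -0.52 ± 0.02, adjusted p = 1.4e-28). Pfkfb4 rose from 1655 and 1725 to 1870 and 1894 (0.16 ± 0.04, adjusted p = 0.00046), a call that was lost with DESeq2 (adjusted p = 0.0378) and without Sham replicate 1 (0.019). The share of Pfkfb3 of the 2 genes by TPM was 76.5% in Sham and 67.0% in PNX. With counts scaled to the EC markers Pfkfb3 was still lower, at -0.25 on the log2 scale.

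The listed genes of lower glycolysis all rose, with 6 of 6 higher, against 29.3% of all genes. Their median log2 fold change was 0.60. Gapdh (chr6:125161852-125166467), which oxidizes glyceraldehyde 3-phosphate and is often used as a reference gene, went from 11797 and 11685 normalized counts to 18930 and 18779. This was 1.61-fold (log2 fold change 0.68 ± 0.02, adjusted p = 1.3e-38). Pgk1, the first enzyme of the pathway to yield ATP and a gene of the X chromosome, went from 1713 and 1700 to 2577 and 2526 (0.58 ± 0.04, adjusted p = 9.6e-22). Pgam1, the mutase that moves the phosphate, went from 1159 and 1212 to 1692 and 1635 (0.49 ± 0.04, adjusted p = 2.8e-15). The replicates differed by far less than the groups at each of these steps.

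Enolase 1 (Eno1) went from 4540 and 4475 normalized counts to 6998 and 6782 (log2 fold change 0.61 ± 0.03, adjusted p = 3.3e-30). Its level is uncertain, since the nearly identical copy Eno1b had almost the same raw counts in every library (5015 against 5011 in Sham replicate 1) and the reads of the 2 copies could not be told apart. Eno2, the enolase of neurons (chr6:124760053-124769673), went from 72.5 and 59.1 to 186 and 170, or 2.69-fold (1.43 ± 0.15, adjusted p = 6.7e-13). It stayed at 1.71% of Eno1 and Eno2 by TPM in PNX, against 0.98% in Sham. Eno3, an enolase outside the list, fell and had more TPM than Eno2, with a mean of 14.0 in Sham and 9.48 in PNX. Pkm, pyruvate kinase, went from 13792 and 13720 to 18530 and 18946 (0.45 ± 0.02, adjusted p = 4.2e-29). The counts of its 2 transcripts agreed to within 99.7% to 99.8% in each library, so its M1 and M2 forms could not be told apart. Gapdh and other enzymes of this group have processed copies elsewhere in the genome, and how reads that match a copy were counted, and whether their strand was used, is not given in the sources used here.

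Over the 16 listed enzymes from hexokinase to pyruvate kinase, 15 rose and only Pfkm did not pass, with a median log2 fold change of 0.47. Of all genes 29.3% rose by the same rule. Outside the list, 6 of 16 other isozymes and regulators tested rose and 4 fell. The summed TPM of the 16 listed enzymes was 1322 and 1326 in Sham and 1697 and 1697 in PNX. Within each group the sums were nearly equal, and the groups lay far apart. Among them Gapdh passed Aldoa in PNX, with 286 TPM in Sham and 449 in PNX against 367 and 374 for Aldoa.

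**Figure D3:**
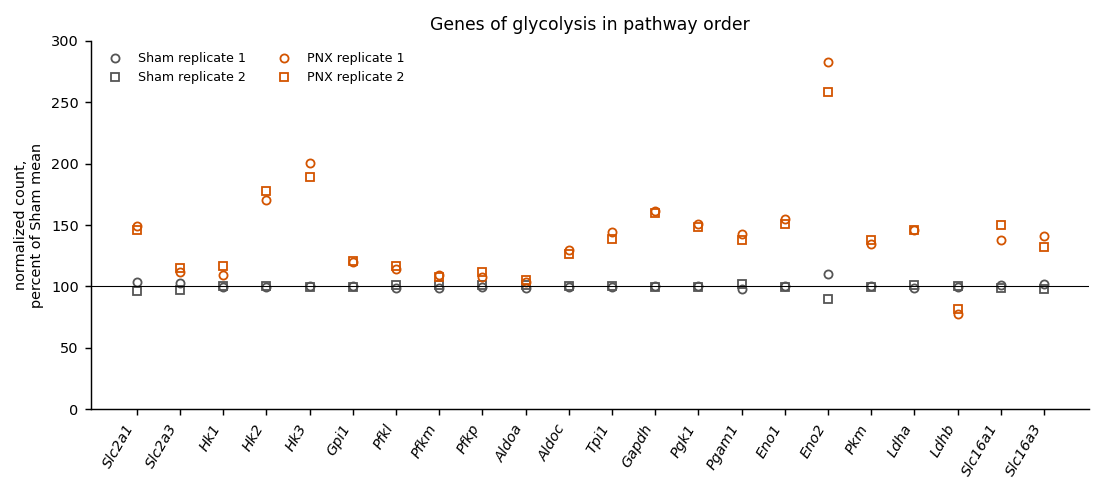
Normalized count of glucose transporters, glycolytic enzymes, lactate dehydrogenases and lactate transporters in the 4 libraries as a percent of its Sham mean (y axis), from glucose entry at the left to lactate export at the right. PNX libraries lie above 100 for every gene shown except Ldhb, closest to it at Aldoa, and highest at Eno2. The regulators Pfkfb3, which fell, and Pfkfb4 are not plotted.

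The transcripts of 1 lactate dehydrogenase subunit and of the lactate transporters rose, while those of the other subunit fell. Ldha (chr7:46842274-46855627), the subunit that favours lactate, went from 8946 and 9103 normalized counts to 13179 and 13180 (log2 fold change 0.55 ± 0.02, adjusted p = 4.5e-32). Ldhb, the subunit that favours pyruvate, fell from 1385 and 1404 to 1085 and 1139 (-0.33 ± 0.05, adjusted p = 7.3e-09). Ldha was 82.1% of the 2 subunits by TPM in Sham and 89.4% in PNX. With counts scaled to the EC markers Ldhb no longer passed (-0.05, adjusted p = 0.297), whereas the order of the subunits' shares does not depend on scaling.

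The lactate transporters rose by like amounts. Slc16a1 (MCT1) went from 969 and 944 normalized counts to 1317 and 1437 (log2 fold change 0.52 ± 0.05, adjusted p = 1.8e-14), and Slc16a3 (MCT4), known for lactate export and as a HIF target, from 1017 and 979 to 1405 and 1321 (0.45 ± 0.05, adjusted p = 1.5e-12). Their shares of each other by TPM overlapped between the groups. Of the pyruvate dehydrogenase kinases, which inhibit the oxidation of pyruvate to acetyl-CoA in mitochondria, the members Pdk1 and Pdk4 did not pass the test. Pdk1, a HIF target, had 1361 and 1400 in Sham and 1299 and 1271 in PNX (-0.10 ± 0.04, adjusted p = 0.042), and Pdk4, known from fasting, had 713 and 673 against 627 and 652 (-0.12 ± 0.06, adjusted p = 0.0835).

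**Figure D4:**
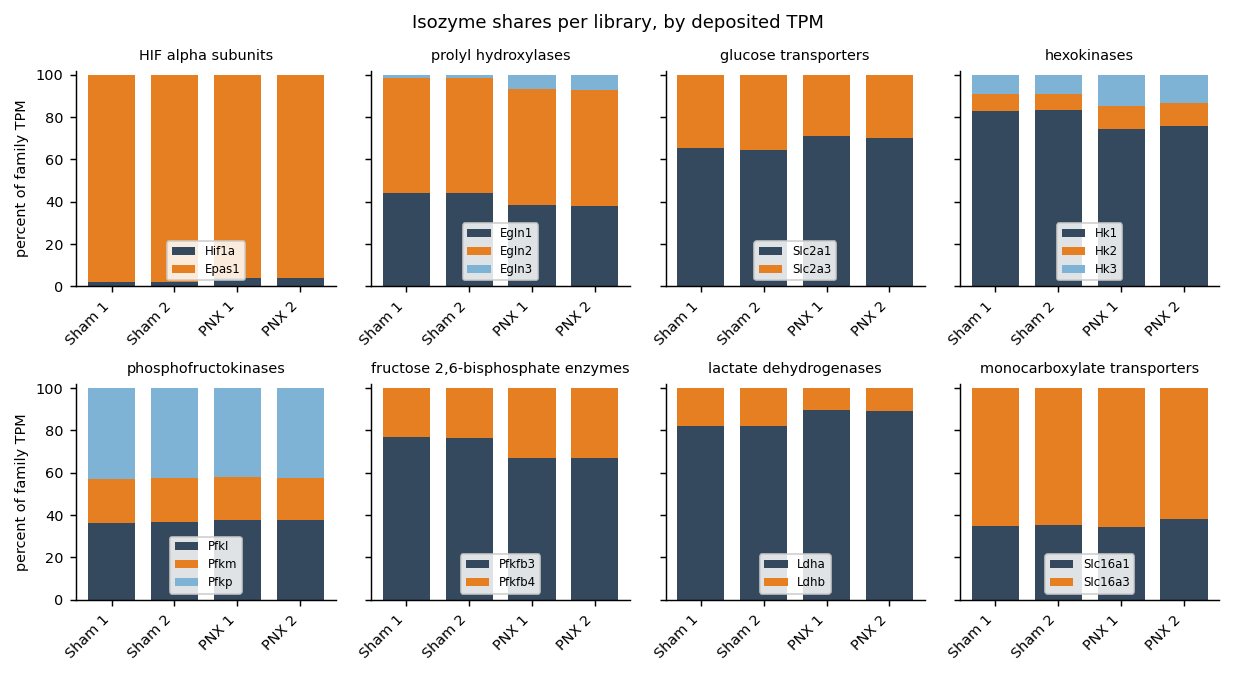
Share of each isozyme or paralog in the summed deposited TPM of its family (y axis, percent) in each of the 4 libraries, for 8 families. The shares of Hif1a, Egln3, Slc2a1, Hk2, Hk3, Pfkfb4 and Ldha are larger in both PNX libraries than in both Sham libraries, while those of the monocarboxylate transporters overlap.

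Of the 5 hypoxia-responsive members 1 was higher and 2 were lower, too few to set apart from the 29.3% and 27.8% of all genes. The other 2 did not pass, and the median log2 fold change of the 5 members was -0.13. With counts scaled to the EC markers their median was 0.15 and that of all genes 0.28. Hilpda (chr6:29272488-29275449), which protects lipid droplets from breakdown in low oxygen, fell from 8652 and 8844 normalized counts to 5312 and 5239. This was the largest fall of the list (-0.73 ± 0.02, adjusted p = 1.3e-35), and it remained at -0.45 with counts scaled to the EC markers. Bnip3, a mitophagy receptor (chr7:138890836-138909506), fell from 1723 and 1668 to 1202 and 1103 (-0.55 ± 0.04, adjusted p = 5.4e-17), and to -0.28 on that scale. The 8 alveolar markers had a median of -0.62, from -0.67 to -0.25, so Hilpda fell further than any of them. The 12 EC markers had a median of -0.34, from -0.54 to 0.11. The part of alveolar or EC RNA in the falls of Hilpda and Bnip3 was not tested.

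Ndrg1, a stress-responsive gene raised in low oxygen, rose from 3257 and 3365 normalized counts to 4197 and 4215 (log2 fold change 0.35 ± 0.03, adjusted p = 3.8e-16). Ankrd37 had 580 and 554 against 521 and 519 (-0.13 ± 0.07, adjusted p = 0.0978). Car9, the carbonic anhydrase often used as a marker of hypoxia, was near the bottom of the list, with 71.6 and 74.4 against 83.5 and 94.7 (0.28 ± 0.17, adjusted p = 0.139). With counts scaled to the EC markers, where the median of all genes was 0.28, Car9 passed the threshold (0.56, adjusted p = 0.00348).

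Beyond the members, 93 of 96 further genes of these pathways could be tested, with a median log2 fold change of 0.11. Of these 45 rose and 20 fell, against 29.3% and 27.8% of all genes. A list of 30 other genes known to respond to hypoxia was mixed, with 14 higher, 10 lower and a median of 0.12. With counts scaled to the EC markers, where 11186 of all 16208 genes passed, 20 of the list were higher and 3 lower. The largest rises were those of Anln, a cytokinesis gene, from 513 and 480 normalized counts to 4013 and 3854 (2.98, adjusted p = 1.7e-54), and Hmox1, the haem oxygenase also raised by oxidative stress, from 1960 and 1944 to 5775 and 5674 (1.55, adjusted p = 7.9e-48). Anln rose by about as much as the 7 proliferation markers, whose median was 3.08. The largest falls were those of Ier3, an early response gene, from 23745 and 24174 to 15266 and 15544 (-0.64, adjusted p = 9.2e-38), and Ddit4, an inhibitor of mTORC1 signalling, from 2903 and 3067 to 1981 and 2031 (-0.57, adjusted p = 3.2e-22). Vegfa and Angptl4, named after their values were seen, moved apart. Vegfa, the main angiogenic ligand, fell from 36914 and 38215 to 28567 and 29182 (-0.38, adjusted p = 2.4e-27), and to -0.10 with counts scaled to the EC markers. Angptl4, a secreted inhibitor of lipoprotein lipase, rose from 1280 and 1269 to 2147 and 2163 (0.76, adjusted p = 3.4e-25).

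**Figure D5:**
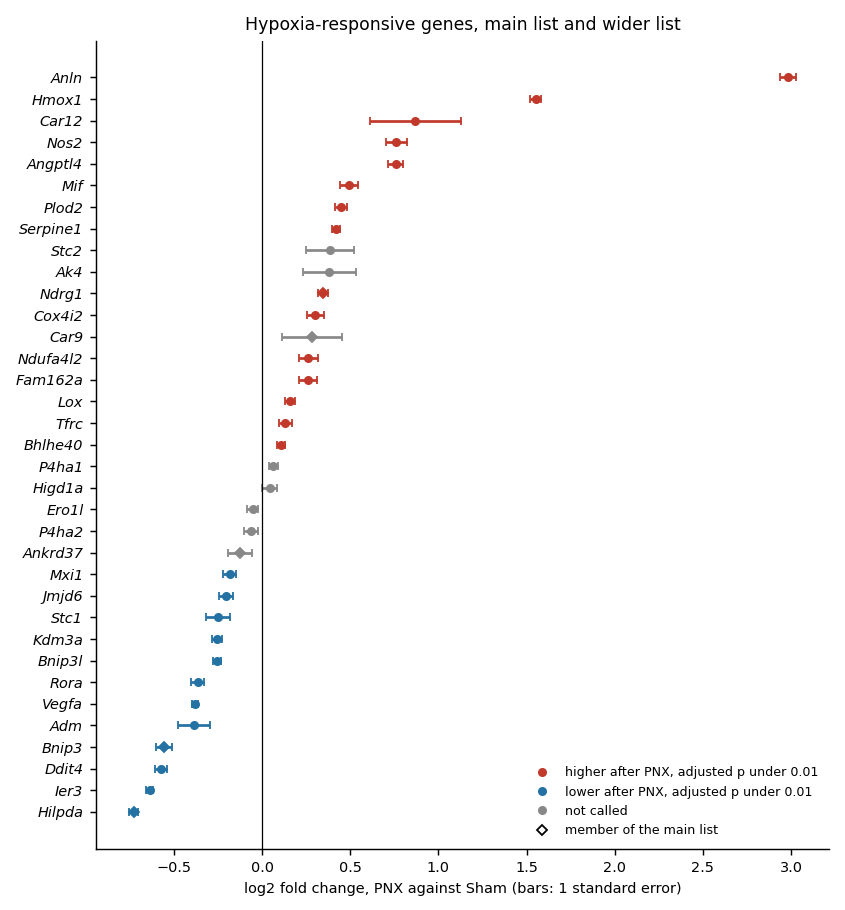
Log2 fold change between PNX and Sham (x axis, bars of 1 standard error) for the 5 hypoxia-responsive members (diamonds) and 30 further genes known to respond to hypoxia (circles). The genes spread from Hilpda at -0.73 to Anln at 2.98, with called genes on both sides of 0.

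Of 11 further genes of the HIF pathway 3 rose and 3 fell, near the 29.3% and 27.8% of all genes, with a median log2 fold change of -0.02. With counts scaled to the EC markers, where 11186 of all 16208 genes passed, 7 rose and 2 fell. The coactivators of HIF fell, Ep300 from 6524 and 6373 normalized counts to 4584 and 4771 (-0.46, adjusted p = 6.0e-24) and Crebbp from 2778 and 2742 to 2031 and 2037 (-0.44, adjusted p = 1.5e-17). Arnt2, a relative of Arnt, rose from 21.7 and 29.6 to 90.4 and 74.7 (1.70, adjusted p = 1.9e-09), a low level in both groups. Tceb2 (elongin B), a part of the Vhl ligase, rose from 3584 and 3551 to 4278 and 4238 (0.26, adjusted p = 9.4e-12).

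Among 18 other isozymes and regulators of glycolysis 16 could be tested, with a median log2 fold change of -0.02. Of these 6 rose and 4 fell, against 29.3% and 27.8% of all genes. With counts scaled to the EC markers 9 rose and 1 fell, with a median of 0.25 against 0.28 for all genes. Pfkfb1 rose from 53.4 and 68.3 normalized counts to 105 and 88.0 (0.68, adjusted p = 0.00068). Eno1b, the copy of Eno1 that shares its reads, was at 0.61. Hkdc1, a hexokinase relative of epithelial cells, fell from 131 and 142 to 99.2 and 81.3 (-0.58, adjusted p = 0.00046; 0.0569 with counts scaled to the EC markers), and Eno3, the muscle enolase, fell from 651 and 633 to 466 and 426 (-0.52, adjusted p = 1.1e-09).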

How the data were processed

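RNA of CD31-selected mouse lung ECs was sequenced as paired ends from a stranded mRNA kit. Per the labels and the study's methods, reads were aligned to mm10 with STAR, whose version, like the counting program, is not given in the sources used here. For each library the authors deposited whole-number counts on 33068 RefSeq transcripts, without normalization. The authors also deposited FPKM and TPM values for each transcript; TPM was used here for shares and levels between genes, and FPKM was not used.

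In the 12 members with more than 1 transcript, the transcripts of a gene had nearly the same counts (the lowest at 95.8% of the highest or more). Each of 24063 symbols was represented by whichever transcript had the highest summed count. Counts were fitted in R 4.3.3 with edgeR 4.0.16 (filterByExpr, TMM factors between 0.9985 and 1.0026, quasi-likelihood F test without covariates). P-values were adjusted by the Benjamini-Hochberg method over 16208 genes. A gene was called at an adjusted p under 0.01, and a standard error is the log2 fold change divided by the square root of F. Normalized counts are scaled to the mean effective library size. The replicates of a group differed by more than counting noise (mean chi-square per gene 1.84 in Sham and 1.59 in PNX), with a median SD of 0.0361 on the log2 scale. The fitted spread beyond counting noise was small, with a common coefficient of variation of 0.0142, and the p-values rest on it. The steps were also run on simulated counts that took their spread from these libraries. Such a run checks the steps and cannot show whether the spread between 2 pools is adequate. Alternatives were other scalings, filters, DESeq2 1.42.0, summed transcripts, the replicate number as a block, and each library left out.

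The members, pathway lists and markers were chosen with earlier results of these data known. Every member is named. Values per library are given for members beyond 0.5 on the log2 scale, for the most abundant of each role and for those whose call or direction changed under an alternative, with others added. From each wider list the 2 largest rises and 2 largest falls among genes averaging 50 or more normalized counts are named, and every gene called beyond 1. Promoter sequences are from RefSeq (GRCm38.p6).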

Additional observations from a re-analysis of the deposited data

How the results depend on the processing

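Scaling to the 12 EC markers moved the median log2 fold change of all genes to 0.28, and changes are best read against that shift. Of the 16208 genes 9258 passed in the main fit and 11186 with this scaling. Under it the members called beyond 1 went from 2 to 4, their median from 0.27 to 0.54, and the other pathway genes from 45 higher and 20 lower to 69 and 6. Arnt (0.20), Egln1 (0.00084), Pdk1 (0.17), Pdk4 (0.16) and Ankrd37 (0.15) turned from below to above 0, and Ldhb no longer passed, while 24 members stayed higher and Epas1, Pfkfb3, Bnip3 and Hilpda stayed lower. The glmTreat test against a log2 fold change of 1 left 1 member, since it tests the fold itself. With DESeq2's Wald test 20 members were higher and 6 lower. Its size factors, library size alone and both filters changed no member's call.

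With 1 library left out, a lone library was taken to vary like the other group, and 27 of the 30 calls passed in every such fit. The exceptions were Slc2a3, Pfkfb4 and Aldoa. Members called beyond 1 numbered 2 to 3, members higher 22 to 24 and members lower 6. The median ranged from 0.20 (without PNX replicate 2) to 0.27, other pathway genes higher from 37 to 43 and lower from 18 to 21.

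The replicate numbers are shared by the groups but name different mice, and deviations of same-numbered libraries correlated at 0.02 over 14299 genes, so the numbers do not pair the samples. With the replicate number as a block 24 members were higher and 6 lower, 2 of them beyond 1 and with a median of 0.27, and 46 and 21 other pathway genes were higher and lower.

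With 2 pools per group, the spread between single mice was not measured, and isoforms and near-identical copies were not told apart by these counts.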

Other observations

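The branches that leave glycolysis were also higher in part. Of 14 genes of gluconeogenesis and glycogen tested, 9 rose and 0 fell at an adjusted p under 0.01 in edgeR's quasi-likelihood test (0 fell at an unadjusted p under 0.05 and 0 by DESeq2's Wald test), with a median log2 fold change of 0.26. By the same edgeR rule 29.3% of all genes rose and 27.8% fell. Fbp1, the fructose bisphosphatase that reverses phosphofructokinase, rose from 26.3 and 20.4 normalized counts to 251 and 257 (log2 fold change 3.43, adjusted p = 1.5e-26). Pck1, the cytosolic enzyme that starts gluconeogenesis, had 1 and 6 raw counts in Sham and 101 normalized counts in each PNX library (4.86, adjusted p = 2.0e-19), a rise that rests on few Sham reads. Pck1 is also known from fat, and 3 of the 4 adipocyte markers that could be tested rose, Adipoq from 1 raw count in each Sham library to 83 and 93 in PNX. The other, Cidec, was the most abundant and fell from 1087 and 1044 normalized counts to 933 and 911. The summed level of the adipocyte markers was 1098 and 1056 in Sham and 1113 and 1113 in PNX. The part of fat RNA in the level of Pck1 was not tested.

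In the pentose phosphate pathway, which makes NADPH and ribose, 5 of 8 genes rose and 1 fell, against 29.3% and 27.8% of all genes. Pgd, which makes NADPH, rose from 4358 and 4315 normalized counts to 5115 and 5463 (0.28, adjusted p = 1.2e-13), and Pgls, the lactonase before it, from 1355 and 1278 to 1556 and 1581 (0.25, adjusted p = 1.1e-06). H6pd, the form of the first enzyme in the endoplasmic reticulum, fell from 10180 and 10052 to 9084 and 9111 (-0.15, adjusted p = 9.0e-09). With counts scaled to the EC markers H6pd was at 0.12, where the median of all genes was 0.28.

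Of 14 genes of pyruvate oxidation 8 rose and 2 fell, against 29.3% and 27.8% of all genes, with a median log2 fold change of 0.11. Pdk3 rose from 760 and 688 normalized counts to 903 and 897 (0.31, adjusted p = 3.0e-06), and Pdp1, the phosphatase that opposes the kinases, from 794 and 779 to 911 and 919 (0.22, adjusted p = 0.0004). Pdk2, another kinase of pyruvate dehydrogenase, fell from 1405 and 1438 to 1128 and 1091 (-0.36, adjusted p = 6.4e-10), and the monocarboxylate transporter Slc16a7 from 383 and 376 to 260 and 293 (-0.46, adjusted p = 5.7e-06). With counts scaled to the EC markers neither of these falls passed the threshold.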
